A study of Homo sapiens with 18 samples.

Results

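The replication-dependent histone genes supply the H1, H2A, H2B, H3 and H4 proteins that package newly copied DNA. They were taken here as every gene whose symbol begins with HIST1H, HIST2H, HIST3H or HIST4H, which gave 66 of the 12853 genes measured. Of these, 5 encoded the linker histone H1, 14 encoded H2A, 19 H2B, 14 H3 and 14 H4, and 2 were annotated as pseudogenes (HIST2H2BA and HIST2H3DP1). RNA was compared in 3 pairs of ovarian cancer cell lines, each with a platinum-sensitive and a platinum-resistant member and 3 replicates per line. A2780, labelled an endometrial/ovarian line, was paired with CP70, which was made resistant in culture. PEA1 and PEA2 came from 1 patient with high-grade serous ovarian cancer, as did PEO1 and PEO4 from another, in each case before and after resistance arose in the clinic. All 6 lines grew in the same medium and the labels give no drug treatment, so a difference within a pair was between lines. Each pair is a single line against a single line, and the labels do not say whether replicates were separate cultures, so the tests below measure the spread between these libraries only.

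Most of these genes sit in large clusters and are transcribed together in S phase, within a nuclear compartment called the histone locus body that is organised by NPAT. Their mRNAs lack introns and, unlike other mRNAs, usually end in a conserved stem-loop bound by SLBP in place of a poly(A) tail. A few members also make a polyadenylated transcript, which can be found in cells that have stopped dividing. The libraries were made from rRNA-depleted total RNA, a preparation that does not select for poly(A) tails.

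The stem-loop was sought in the 150 bases after the stop codon, as a perfect 6-base stem opening with GG around a 4-base loop, in the GRCh37 sequence of the 60 members with an annotated coding sequence. It was found in 58 of them, at a median of 35 bases after the stop codon and at 22 to 67 bases. The more frequent forms of each stem are shown because the same element marks nearly every gene described below (DNA letters, stem in capitals, loop in lower case).
HIST1H2AI, chr6:27776425-27776440, plus strand: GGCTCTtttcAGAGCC
HIST1H3G, chr6:26271151-26271166, minus strand: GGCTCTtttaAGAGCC
HIST1H4C, chr6:26104545-26104560, plus strand: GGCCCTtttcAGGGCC
HIST2H4A, chr1:149804596-149804611, plus strand: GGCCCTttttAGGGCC
The form of HIST1H2AI was shared by 35 genes of the H1, H2A, H2B and H3 classes, and the form of HIST1H3G, which differs in the loop, by 7. The 13 H4 genes had a different stem, in the form of HIST1H4C in 8 genes and of HIST2H4A in 4. HIST1H2AK and HIST1H2AG held no such match in this window.

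Promoters were read from 250 bases before to 50 bases after the annotated start of 62 members. The letters TATAAA on the sense strand were present in 36 of them (58.1%), against 4.39% of the promoters of all 12772 annotated genes. CCAAT on either strand was present in 52 of 62 members (83.9%) against 35.8% of all promoters, and this differed by class, with 14 of 14 H3 promoters and 4 of 13 H4 promoters. The octamer ATTTGCAT on either strand was present in 9 of 14 H2A and 12 of 16 H2B promoters and in none of the H1, H3 and H4 promoters, against 1.43% of all promoters. The median promoter of a member held 11.5 CpG dinucleotides in 300 bases, against 27 for all genes.

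Depth was uneven. The libraries held between 1344098 and 7067336 reads on the listed genes, lowest in PEA1, and 3 reads corresponded to between 0.452 and 2.18 CPM, the reads of a gene scaled to a common library size. The deposited values were log2 CPM with 0.5 reads added. Against their defining markers the lines were not alike: PAX8 and WT1, markers of serous ovarian tumours, had at most 1 read in any A2780 or CP70 library, and of 6 epithelial genes KRT7, KRT19 and CDH1 had at most 4 reads in any A2780, CP70 or PEA1 library. The other epithelial genes were detected in part of these lines. KRT18 had 242 to 407 reads in CP70, 89 to 119 in PEA1 and 3 in A2780, KRT8 had 42 to 82, 93 to 174 and at most 2, and EPCAM had 59 to 95, 21 to 28 and at most 5. PTPRC, a leukocyte gene, had 46 to 70 reads in PEA2 and at most 2 in every other library, and CDH5, an endothelial gene, had 66 to 88 reads in PEA2 and at most 1 elsewhere. The serous genes were not uniform in the PEA and PEO lines either. PAX8 had 379 reads or more in every PEA and PEO library, but WT1 had 7 to 11 in PEA1 and 13 to 25 in PEA2. MUC16 had at most 5 and MSLN at most 2 in PEA1, and SOX17 at most 1 in PEO1 and PEO4. COL1A1, listed for fibroblast or mesothelial cells, had 513 to 649 reads in PEA1 and at most 46 elsewhere. COL1A2, DCN and LUM of the same list had 0 in PEA1. CP70 and A2780 differed for them, with 80 to 150 against 4 to 12 reads of DCN and 41 to 72 against 0 to 6 of LUM. COL1A2 had 50 to 95 against 0 to 2, while COL1A1 had 15 to 32 against 13 to 28. The part of these differences in the results below was not tested. In the text, log2FC is the resistant line minus its sensitive partner, tested with limma and with the Benjamini-Hochberg false discovery rate (FDR) taken across the 12853 genes, and a gene is said to have risen or fallen when its FDR was below 0.05.

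Total histone message differed more between the 3 pairs than within any of them. The summed CPM of the 66 genes was 15608, 11221 and 14462 in the A2780 libraries and 13647, 12489 and 11992 in CP70. It was 5558, 5233 and 4551 in PEA1 and 5725, 5265 and 5499 in PEA2. In PEO1 it was 8854, 9581 and 10315, and in PEO4 it was 9617, 7888 and 10062. The ranges of the 3 pairs did not overlap with each other, while sensitive and resistant libraries of each pair did overlap. The ratio of the resistant to the sensitive mean was 0.923 ± 0.165 (SD, n = 3 and 3) for CP70 over A2780, 1.07 ± 0.117 for PEA2 over PEA1 and 0.959 ± 0.140 for PEO4 over PEO1. A2780 replicate 2 had the lowest sum of its line, and stood low in H1, H2A, H3 and H4 but not in H2B, where it had 2014 CPM against 1943 and 1825. In bulk RNA of this kind, fewer cells in S phase and less message per cell cannot be told apart.

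**Figure D1:**
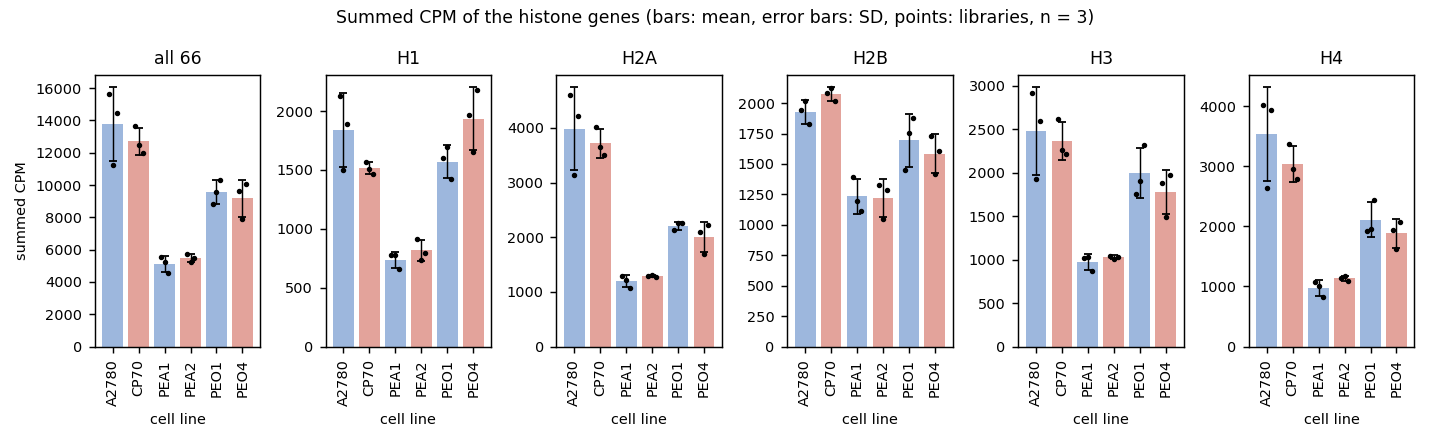
Summed CPM (y axis, linear from 0) of all 66 histone genes and of each class, by cell line (x axis), with bars for the mean, error bars for the SD and points for the 3 libraries. The A2780 and CP70 libraries lie between 11221 and 15608 for all 66 genes, the PEO libraries between 7888 and 10315 and the PEA libraries between 4551 and 5725.

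The classes differed between lines to unequal degrees. H2A, the partner of H2B in the nucleosome, summed to 3985 ± 753 CPM in A2780, 2211 ± 75.9 in PEO1 and 1197 ± 108 in PEA1 (SD, n = 3 each). H4 summed to 3533 ± 780, 2112 ± 292 and 971 ± 129 in the same lines. H2B spanned less, at 1927 ± 95.3, 1696 ± 218 and 1234 ± 145. H1 reached the same range in the PEO lines as in A2780 and CP70, with 1419 to 2183 CPM over the 6 PEO libraries and 1469 to 2127 over the 6 A2780 and CP70 libraries.

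Per kilobase of coding sequence, the highest values listed in the H2A, H3 and H4 classes were those of HIST2 genes on chromosome 1. HIST2H2AA3 and HIST2H2AA4 averaged 1558 and 1556 CPM per coding kilobase over the 18 libraries, HIST2H4A and HIST2H4B 1523 each, and HIST2H3C and HIST2H3A 891 each. These are pairs of copies with identical coding sequences (390, 309 and 408 bases). Their counts differed by at most 5, 2 and 17 reads in any library, so most reads appear to be counted under both copies. Neither copy can be measured alone, and each value would hold the signal of both. HIST2H3A and HIST2H3C therefore cannot be ranked above HIST1H3B as single genes. HIST1H4J and HIST1H4K, identical over 309 coding bases, differed by at most 27 reads. With 1 of each such pair summed, the 3 pairs of lines still did not overlap, at 9070 to 12165 CPM for A2780 and CP70, 3947 to 4927 for the PEA lines and 6937 to 8795 for the PEO lines. Outside HIST2 the highest were HIST1H2BK (689.5 CPM per coding kilobase) for H2B, HIST1H1C (684) and HIST1H1E (586) for H1, and HIST1H3B (669.9) for H3. All of these levels are per coding kilobase of reads counted over the whole gene, so a gene with a long annotated tail is overstated.

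**Figure D2:**
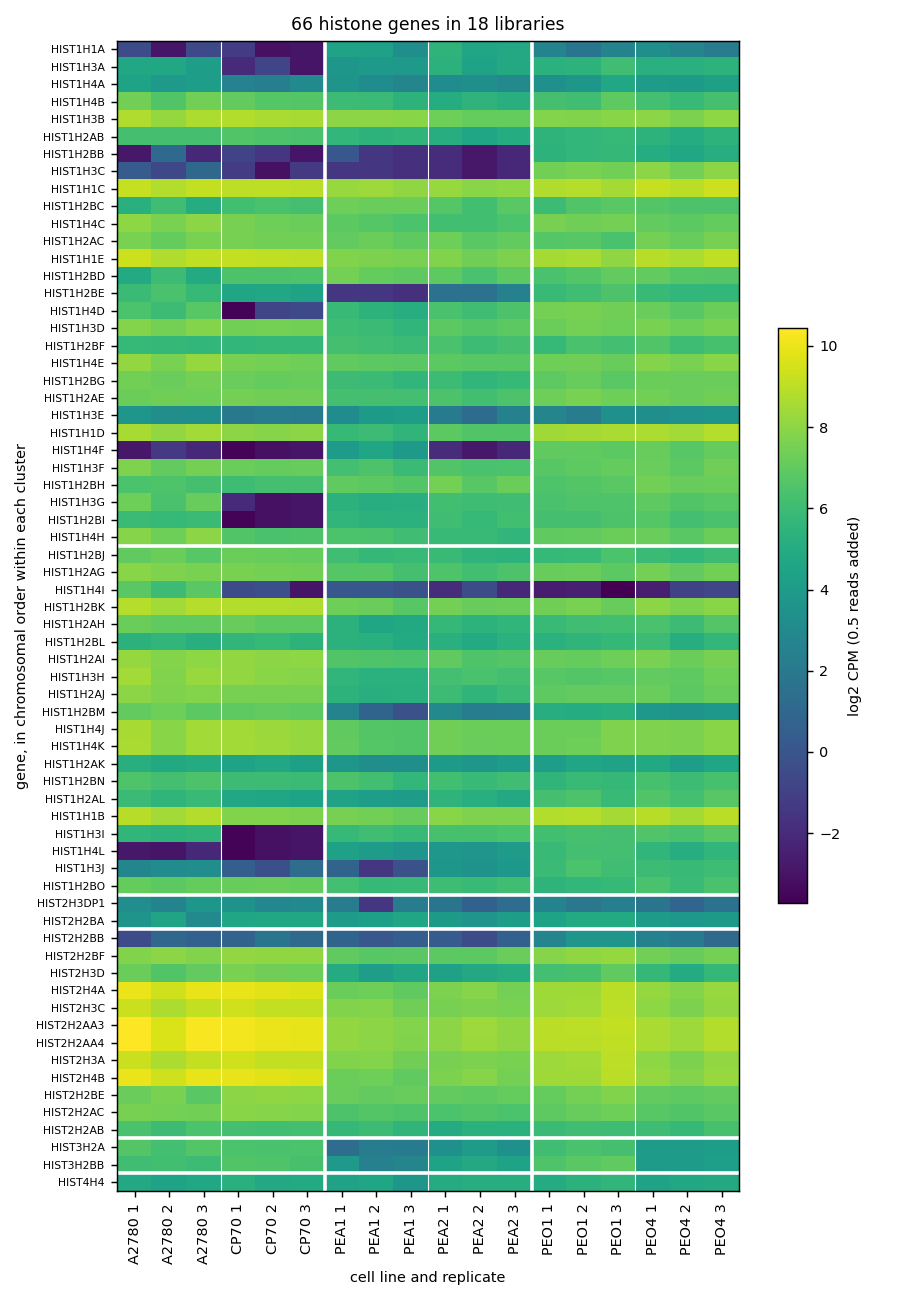
Log2 CPM (colour) of the 66 histone genes (rows, in chromosomal order within each cluster) in the 18 libraries (columns). Dark cells mark genes at or near 0 reads, among them HIST1H3G, HIST1H2BI and HIST1H3I in CP70, HIST1H4L in A2780 and CP70 and HIST1H3C in both PEA lines.

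Although the sums were alike within each pair, single genes were silent in some lines. A gene was counted as silent in a line when none of its 3 libraries had more than 3 reads. By this measure 14 of the 66 genes (21.2%) were silent in at least 1 line, against 18.1% of all genes. CP70 had 10 such histone genes (15.2% against 8.61% of all genes) and A2780 had 3 (4.55% against 11.3%). PEA1 had 6 (9.09% against 7.62%) and PEA2 had 5 (7.58% against 5.46%), and PEO1 and PEO4 had 1 each (1.52% against 3.19% and 4.12%). HIST1H4L, an H4 gene, had 0 reads in all 6 A2780 and CP70 libraries, 22 to 44 in the PEA libraries and 103 to 495 in the PEO libraries. HIST1H3C had 519 to 1132 reads in the PEO libraries, 0 in every PEA library and at most 4 in A2780 and CP70. HIST1H2BB, whose start lies 1671 bases from that of HIST1H3C on the other strand, had 79 to 347 reads in the PEO libraries and at most 3 elsewhere, except for 8 in A2780 replicate 2. HIST1H1A, an H1 gene, had at most 2 reads in A2780 and CP70 and 9 to 83 in the other lines. The reverse was seen for HIST1H4I, with 402, 242 and 255 reads in A2780 and at most 2 in any PEA or PEO library.

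The comparison of CP70 with A2780 asked which genes differed between the line made resistant in culture and its sensitive partner. Of the 66 genes, 19 fell in CP70 (28.8%, against 17.7% of all genes) and 5 rose (7.58%, against 22.2%). With an absolute log2FC above 2, the threshold of the study, 8 fell (background 3.4%) and 0 rose by limma (background 5.66%, and also 0 at an unadjusted p under 0.05). The median log2FC was -0.11 for the histone genes and -0.02 for all genes. All 19 lay in the HIST1 clusters on chromosome 6, 13 of them among the 29 genes of the first block (chr6:26017260-26285866) and 6 among the 20 of the second (chr6:27093676-27861669). Leaving out A2780 replicate 3 lowered the 5 that rose to 3, and fitting this pair alone raised them to 8. The shares over all genes in these other fits were not counted.

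The 8 genes past a log2FC of -2 were 5 H3 genes, 2 H4 genes and 1 H2B gene, and 6 of them had 4 reads or fewer in every CP70 library after 40 or more in every A2780 library. HIST1H3G, an H3 gene, had 567, 323 and 312 reads in A2780 and 1, 0 and 0 in CP70. Its log2FC was -9.62 ± 0.24 (SE, FDR 3.02e-17), and pooled reads gave a ratio of 1753 with a counting interval of 314 to 69286. HIST1H2BI, an H2B gene, had 221, 207 and 136 reads in A2780 and 0 in each CP70 library. It was at least 274-fold lower in CP70, with the floor set at 3 reads over the line (log2FC FDR 2.46e-18). The starts of HIST1H3G and HIST1H2BI lie 1518 bases apart on opposite strands. HIST1H3F and HIST1H2BH form a similar pair in the same block, with starts 979 bases apart, and both were kept. HIST1H3F had 738, 505 and 394 reads in A2780 and 883, 579 and 528 in CP70 (log2FC -0.26 ± 0.16, FDR 0.213), and the libraries overlapped. HIST1H2BH had 305, 357 and 168 against 408, 324 and 288 (log2FC -0.20 ± 0.14, FDR 0.291).

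HIST1H3I, an H3 gene of the second block, had 170, 164 and 104 reads in A2780 and 0 in each CP70 library, which was at least 213-fold lower (FDR 2.34e-18). HIST1H4D, an H4 gene, had 310, 244 and 238 reads in A2780 and 0, 2 and 2 in CP70. Its log2FC was -8.04 ± 0.48 (FDR 3.23e-11), with a pooled ratio of 289 and a counting interval of 112 to 1062. HIST1H4I, the H4 gene silent in all PEA and PEO libraries, went from 402, 242 and 255 reads to 4, 3 and 0 (log2FC -7.75 ± 0.66, FDR 6.23e-09). HIST1H3A, an H3 gene, went from 98, 105 and 40 reads to 1, 2 and 0, a pooled ratio of 118 with a counting interval of 39.9 to 577 (FDR 2.41e-11). The libraries of the lines did not overlap for any of these genes. HIST1H3A lies next to HIST1H4A, an H4 gene, which fell less, from 81, 57 and 40 reads to 35, 21 and 31 (log2FC -1.55 ± 0.31, FDR 0.000474).

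HIST1H3J and HIST1H3C completed the 8. HIST1H3J, an H3 gene, had 24, 33 and 20 reads in A2780 and 8, 3 and 9 in CP70 (log2FC -2.52 ± 0.44, FDR 8.99e-05). HIST1H3C had only 4, 2 and 4 reads in A2780 and 2, 0 and 1 in CP70, a pooled ratio of 4.86 with a counting interval of 1.25 to 27.5. HIST1H4F was also called lower, but on 1 read in A2780 and 0 in CP70, so no fold is given.

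**Figure D3:**
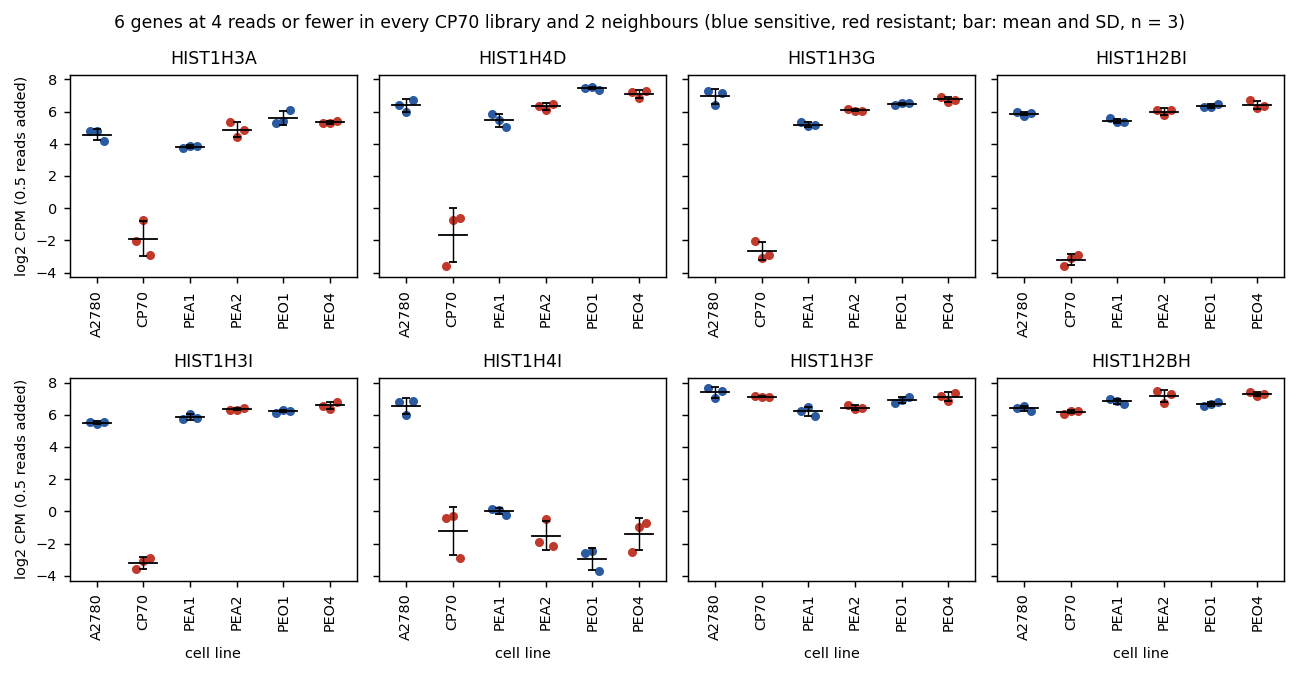
Log2 CPM with 0.5 reads added (y axis) in each library of the 6 lines (x axis), for 6 genes at 4 reads or fewer in every CP70 library and for HIST1H3F and HIST1H2BH, with lines for the mean and bars for the SD (n = 3). The CP70 points of the first 6 genes lie below 0 and those of HIST1H3F and HIST1H2BH lie between 6.06 and 7.18.

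Of the 56 histone genes with a mean log2 CPM above 4 in A2780, 5 were silent in CP70 (8.93%), against 54 of 8063 genes in all (0.67%). In the reverse direction, 0 of the 50 histone genes expressed in CP70 were silent in A2780, against 0.926% of all genes. The same count was 1 of 52 (1.92%, against 0.981% of all genes) for PEA1 genes silent in PEA2 and 0 of 60 (against 0.312%) for PEO1 genes silent in PEO4. In reverse it was 0 of 51 (against 2.48%) for PEA2 genes silent in PEA1 and 0 of 59 (against 0.197%) for PEO4 genes silent in PEO1. The 5 genes, HIST1H3A, HIST1H4D, HIST1H3G, HIST1H2BI and HIST1H3I, made up 2.47% ± 0.0857 (SD, n = 3) of the summed histone CPM of A2780. Within their classes they made up 7.93% ± 0.0854 of the H3 sum, 3.06% ± 0.357 of the H2B sum and 2.42% ± 0.274 of the H4 sum.

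The 150 bases before the starts of these genes and of the kept pair are printed so that their elements can be compared. They are from GRCh37, 5′ to 3′ on the strand of the gene, with TATAAA on the sense strand and CCAAT or ATTTGCAT on either strand in capitals.
HIST1H3G, chr6:26271642-26271791, minus strand: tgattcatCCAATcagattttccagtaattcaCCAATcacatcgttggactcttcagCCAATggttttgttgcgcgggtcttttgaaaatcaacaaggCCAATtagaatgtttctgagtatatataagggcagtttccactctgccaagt
HIST1H2BI, chr6:26273009-26273158, plus strand: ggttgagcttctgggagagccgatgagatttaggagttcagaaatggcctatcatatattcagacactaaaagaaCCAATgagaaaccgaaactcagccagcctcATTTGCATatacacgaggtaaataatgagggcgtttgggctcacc
HIST1H3F, chr6:26250864-26251013, minus strand: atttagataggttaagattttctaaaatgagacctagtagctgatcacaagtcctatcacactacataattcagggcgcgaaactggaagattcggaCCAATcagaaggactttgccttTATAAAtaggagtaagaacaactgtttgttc
HIST1H2BH, chr6:26251692-26251841, plus strand: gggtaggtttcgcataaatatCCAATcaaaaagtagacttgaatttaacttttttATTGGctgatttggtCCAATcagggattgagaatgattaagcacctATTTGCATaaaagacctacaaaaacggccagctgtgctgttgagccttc
HIST1H3A, chr6:26020529-26020678, plus strand: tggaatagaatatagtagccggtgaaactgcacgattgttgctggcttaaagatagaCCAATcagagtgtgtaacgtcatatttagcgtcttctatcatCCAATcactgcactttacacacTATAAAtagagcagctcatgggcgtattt
HIST1H3I, chr6:27840125-27840274, minus strand: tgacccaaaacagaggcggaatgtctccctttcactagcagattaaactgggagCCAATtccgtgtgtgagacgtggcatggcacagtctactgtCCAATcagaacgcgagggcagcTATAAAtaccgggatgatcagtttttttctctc
HIST1H4D, chr6:26189341-26189490, minus strand: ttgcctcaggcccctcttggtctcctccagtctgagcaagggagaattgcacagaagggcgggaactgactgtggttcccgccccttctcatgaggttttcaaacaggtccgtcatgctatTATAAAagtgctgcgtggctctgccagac
HIST1H4I, chr6:27106911-27107060, plus strand: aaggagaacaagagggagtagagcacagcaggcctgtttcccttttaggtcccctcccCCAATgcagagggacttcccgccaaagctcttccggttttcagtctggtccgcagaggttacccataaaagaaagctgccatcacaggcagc
The lost and the kept H2B genes both carried a CCAAT and the octamer in this window. The lost HIST1H3A and HIST1H3I and the kept HIST1H3F all carried TATAAA and CCAAT, whereas HIST1H3G carried CCAAT without those TATAAA letters. HIST1H4D carried TATAAA without CCAAT, and HIST1H4I the reverse. These are matches of letters only.

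The other genes that fell in CP70 did so by less. HIST1H2BE fell from 213, 322 and 120 reads to 148, 109 and 83 (log2FC -1.42 ± 0.26, FDR 0.00016). HIST1H4H fell by 1.20 ± 0.15 (SE) on the log2 scale, HIST1H2AL by 1.20 ± 0.19, and the H1 genes HIST1H1B and HIST1H1D by 0.998 ± 0.13 and 0.45 ± 0.13. The 5 that rose were all H2A or H2B genes. HIST1H2BD had 5.28 ± 0.61 (SD) log2 CPM in A2780 and 6.50 ± 0.03 in CP70 (log2FC 1.22 ± 0.23, FDR 0.000256). HIST2H2BE rose by 0.85 ± 0.16, HIST1H2BC by 0.77 ± 0.23 and HIST2H2AC by 0.40 ± 0.10, and the pseudogene HIST2H2BA rose by 1.02 ± 0.28 (all SE, n = 3 and 3). HIST1H2BD, HIST1H2BC and HIST2H2BE belong to the 6 members known to make polyadenylated transcripts. Those 6 summed to 1371 ± 105 CPM in A2780 and 1569 ± 31.3 in CP70 (SD, n = 3). In CP70, 3 of them rose (50%, against 22.2% of all genes) and 0 fell, by limma and with 3 not called. The other pairs went both ways, at 1055 ± 79.4 in PEO1 and 1312 ± 130 in PEO4, and 1009 ± 83.3 in PEA1 and 893 ± 114 in PEA2. In PEO4, 3 rose (50%, against 19.6%) and 1 fell, and in PEA2 0 rose by limma and 1 fell.

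**Figure D4:**
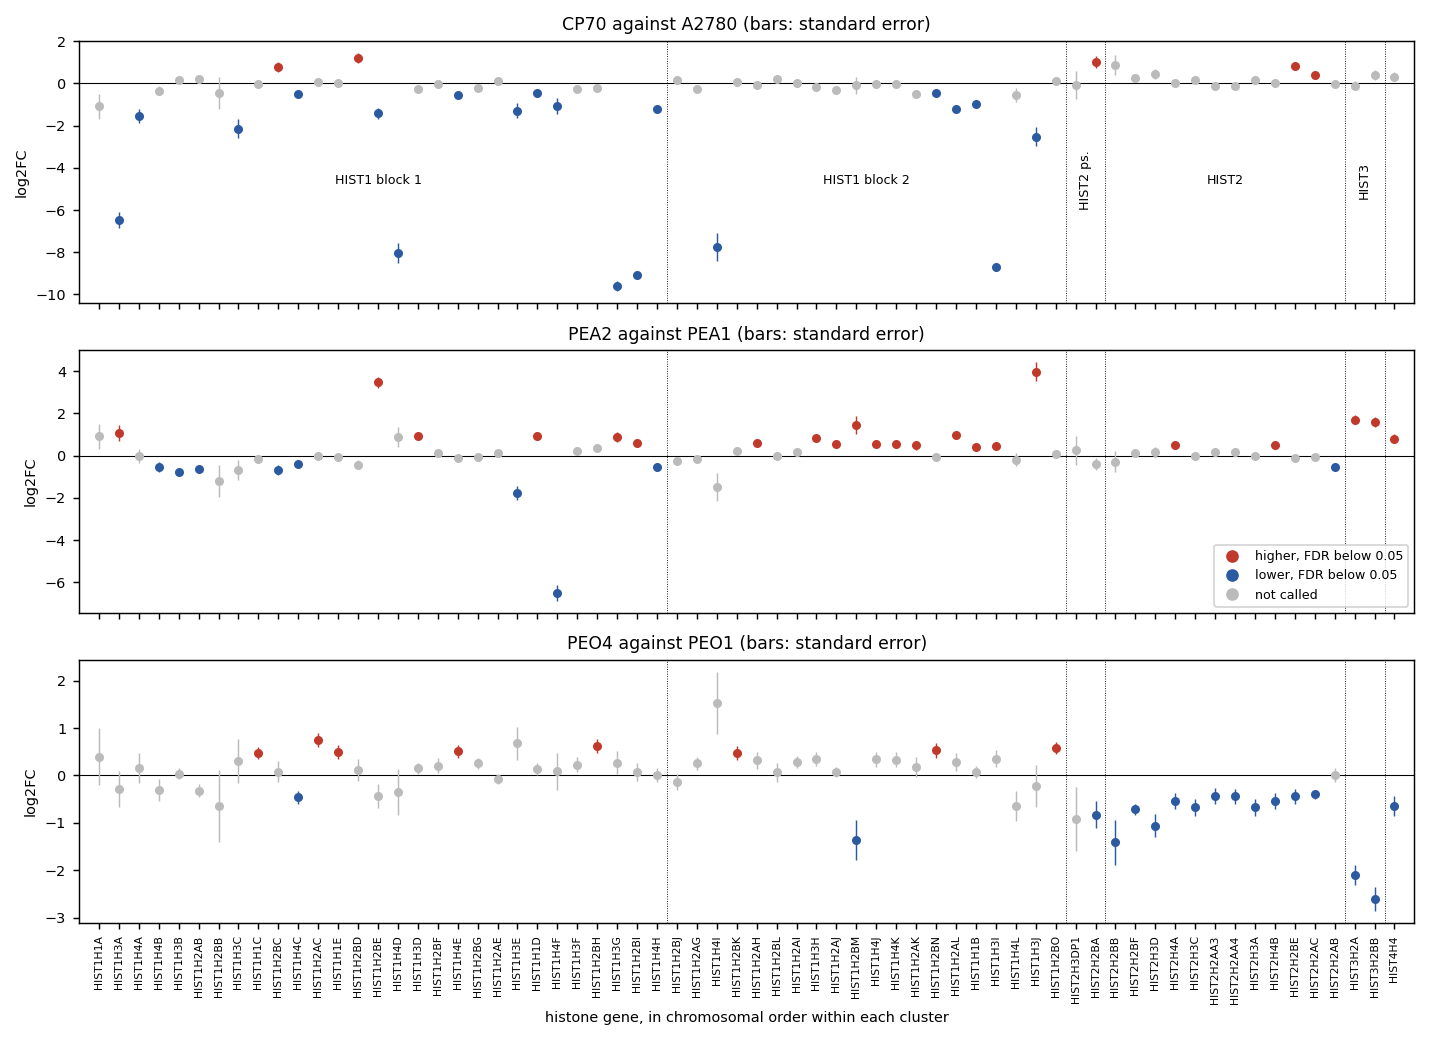
Log2FC of each histone gene (y axis, resistant minus sensitive, bars for the SE) in chromosomal order within each cluster (x axis), with 1 panel per pair and a separate scale in each. The lowest points in the CP70 panel are HIST1H3G at -9.62 and HIST1H2BI at -9.08, side by side. In the PEO4 panel nearly all HIST2 genes lie below 0.

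In the PEA pair, more histone genes rose than fell. In all, 22 of the 66 genes rose in PEA2 (33.3%, against 32.5% of all genes) and 9 fell (13.6%, against 29.4%), with a median log2FC of 0.12 against 0.01 for all genes. The share that rose was near the background and the share that fell was below it. Past a log2FC of 2, 2 rose (background 7.93%) and 1 fell (background 6.15%). In the second HIST1 block 11 of 20 genes rose and 0 fell by limma. In the first block 6 of 29 rose and 8 fell.

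HIST1H4F, an H4 gene, was lost in PEA2. It had 23, 35 and 26 reads in PEA1 and 0 in each PEA2 library, which was at least 46.7-fold lower (FDR 1.87e-11). It had 0, 1 and 0 reads in A2780, 0 in CP70 and 328 to 761 in the PEO libraries. HIST1H3J went from 2, 0 and 1 reads in PEA1 to 25, 38 and 31 in PEA2, a pooled ratio of 18.8 with a counting interval of 6.24 to 92.7 (FDR 1.53e-07). HIST1H2BE went from 0 in each PEA1 library to 5, 10 and 12 reads, at least 5.4-fold higher (FDR 6.53e-10). These levels were low beside the 83 to 596 reads of HIST1H2BE in the A2780, CP70 and PEO libraries.

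Moderate increases in PEA2 included the H3 genes HIST1H3D (log2FC 0.92 ± 0.12, SE), HIST1H3G (0.90 ± 0.24), HIST1H3H (0.84 ± 0.15) and HIST1H3I (0.47 ± 0.18), and the H1 genes HIST1H1D (0.94 ± 0.13) and HIST1H1B (0.40 ± 0.13). Among those that fell were HIST1H3E (-1.78 ± 0.34), HIST1H3B (-0.78 ± 0.12), HIST1H2BC (-0.68 ± 0.23) and HIST1H2AB (-0.63 ± 0.13). HIST1H3B had 344, 347 and 419 reads in PEA1 and 296, 466 and 303 in the deeper PEA2 libraries, or 7.94 ± 0.03 and 7.16 ± 0.12 (SD) log2 CPM, with no overlap.

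In the PEO pair most HIST2 genes fell and most HIST1 genes did not pass the test. In all, 8 of the 66 genes rose in PEO4 (12.1%, against 19.6% of all genes) and 17 fell (25.8%, against 21.9%), with a median log2FC of 0.07 against -0.02. The number that rose depended on the fit, at 16 with the PEO pair fitted alone, while 22 then fell. The shares over all genes in that fit were not counted. Past a log2FC of 2, 0 rose by limma (background 2.86%, and also 0 at an unadjusted p under 0.05) and 2 fell (background 3.37%). All 8 that rose were among the 49 HIST1 genes (16.3%), of which 39 were not called. Of the 12 HIST2 genes (chr1:149754245-149859515), 11 fell and none rose, with a median log2FC of -0.53 and a range of -1.41 to 0.01. The largest was for HIST2H2BB, at 20, 35 and 84 reads in PEO1 and 16, 13 and 5 in PEO4 (log2FC -1.41 ± 0.48, FDR 0.0229), followed by HIST2H3D (-1.06 ± 0.25, FDR 0.00164) and HIST2H2BF (-0.71 ± 0.12, FDR 4.89e-05). HIST2H2AB did not pass the test (0.01 ± 0.15, FDR 0.968). These 12 include 3 pairs of copies that share reads. The count was carried in part by single libraries, since 5 of the 12 fell without PEO1 replicate 3, 6 without PEO4 replicate 2 and 7 without PEO1 replicate 2, and the 17 became 9, 10 and 11.

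The HIST1 genes that rose in PEO4 included HIST1H2AC (log2FC 0.76 ± 0.15, SE), HIST1H2BH (0.62 ± 0.14), HIST1H2BO (0.58 ± 0.13), HIST1H1E (0.49 ± 0.15) and HIST1H1C (0.47 ± 0.12). The other genes around the clusters were counted as well. Within 1 Mb of HIST1, 20 of 27 genes that are not histone genes of this set rose in PEO4 (74.1%, against 19.6% of all genes). Of these 27, 1 fell (3.7%, against 21.9% of all genes), and their median log2FC was 1.30. The 49 HIST1 genes had 8 that rose, 2 that fell and a median of 0.17. Within 1 Mb of HIST2, 5 of 25 other genes rose (20%, near the share of all genes) and 1 fell (4%). Their median was 0.13, against -0.53 for the 12 HIST2 genes. Within 1 Mb of HIST3, 1 of 16 other genes rose and 7 fell (43.8%), with a median of -0.37, beside the 2 HIST3 genes, which both fell. In CP70, 4 of the 27 HIST1 neighbours rose and 5 fell (18.5%, against 17.7% of all genes). Of the 49 HIST1 genes, 2 rose there and 19 fell (38.8%). In PEA2, 4 of these neighbours rose and 10 fell (37%, against 29.4% of all genes), beside 17 and 8 of the HIST1 genes. The difference between the histone genes and their neighbours was not tested.

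**Figure D5:**
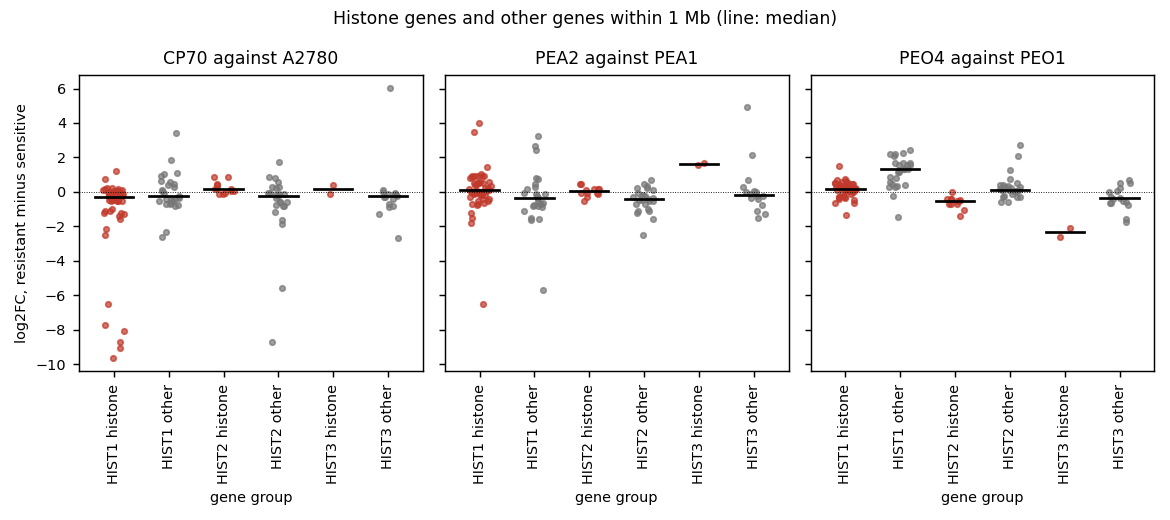
Log2FC (y axis, resistant minus sensitive) of histone genes (red) and of other genes within 1 Mb (grey) at HIST1, HIST2 and HIST3, with a line for the median and 1 panel per pair. In PEO4 the HIST1 neighbours have a median of 1.30 and the HIST1 histone genes a median of 0.17.

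HIST3H2A and HIST3H2BB, an H2A and an H2B gene whose starts lie 230 bases apart on opposite strands of chromosome 1, moved together. HIST3H2A had 208, 229 and 500 reads in PEO1 and 50, 51 and 44 in PEO4 (log2FC -2.09 ± 0.21, FDR 1.6e-07). HIST3H2BB had 279, 313 and 841 reads in PEO1 and 50, 51 and 47 in PEO4 (log2FC -2.60 ± 0.25, FDR 6.36e-08). In the PEA pair both rose, by 1.70 ± 0.21 and 1.59 ± 0.25 on the log2 scale, from 3 to 20 reads in PEA1 to 19 to 99 in PEA2. In the A2780 pair neither passed the test (-0.10 ± 0.21, FDR 0.736, and 0.39 ± 0.25, FDR 0.227). HIST3H2BB and HIST3H2A are annotated with exons beyond the short histone message (5002 and 1850 bases in all), and the counts do not separate these transcripts.

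The set held 11 such pairs of starts within 2000 bases on opposite strands, and partners did not always move alike. HIST1H2BM rose in PEA2 (log2FC 1.45 ± 0.42) and fell in PEO4 (-1.36 ± 0.42). Its partner HIST1H2AJ, 245 bases away, had 0.54 ± 0.11 and 0.07 ± 0.11, the last with FDR 0.653. The rise of HIST1H2BM rests on few reads, with 8, 2 and 1 in PEA1 and 14, 16 and 11 in PEA2, and these libraries overlapped in log2 CPM. In PEO4 HIST1H2AC rose by 0.76 ± 0.15 while its partner HIST1H2BC had 0.08 ± 0.23 (FDR 0.802). HIST2H2BE and HIST2H2AC, 236 bases apart, both rose in CP70 and both fell in PEO4, by 0.44 ± 0.16 and 0.40 ± 0.10.

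Over all pairs in 1 model with the pair as a term, 0 histone genes rose in the resistant lines by limma (background 12.5%, and 7 at an unadjusted p under 0.05) and 3 fell (background 11.6%). HIST1H4C, an H4 gene, was the only member to fall in each pair, by 0.50 ± 0.13 in CP70 (FDR 0.00507), 0.40 ± 0.13 in PEA2 (FDR 0.0139) and 0.46 ± 0.13 in PEO4 (FDR 0.00863), although PEA1 and PEA2 libraries overlapped. That is 1.52% of the members, against 1.21% of all genes that fell in each pair. No member was called higher by limma in all 3 pairs, against 1.59% of all genes. The model gave log2FC -0.46 ± 0.09 for HIST1H4C (FDR 0.00147), -0.58 ± 0.15 for HIST1H4H (FDR 0.0118) and -2.50 ± 0.73 for HIST1H4F (FDR 0.0207), the last with -6.51 in the PEA pair. Treating the 3 pair differences as the replicates left 0 genes that fell, and the replicate block left 1.

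The pairs differed from each other for many histone genes, as they did for many of all genes. A test of the difference between log2FC values passed for 34 of the 66 genes between the PEA and A2780 pairs (background 57.5%). It passed for 36 of 66 between PEO and A2780 (background 47.5%) and 33 of 66 between PEO and PEA (background 58.7%). The histone share was thus below that of all genes for PEA against A2780 and PEO against PEA, and above it for PEO against A2780. Of the 66 genes, 54 passed the test in at least 1 pair (81.8%, against 84.3% of all genes), and 21 rose in one pair and fell in another (31.8%, against 27.5%), so both shares were near those of all genes. Among those, 9 fell in CP70 and rose in PEA2 (13.6%, against 5.4%), including HIST1H3A, HIST1H3G, HIST1H2BI, HIST1H3I, HIST1H3J, HIST1H1B and HIST1H1D, and 6 rose in PEA2 and fell in PEO4 (9.09%, against 8.3%). The latter were HIST3H2A, HIST3H2BB, HIST1H2BM, the copies HIST2H4A and HIST2H4B, and HIST4H4. HIST4H4, an H4 gene alone on chromosome 12, had log2FC 0.79 ± 0.21 in PEA2 (FDR 0.00306) and -0.64 ± 0.21 in PEO4 (FDR 0.0186).

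The genes that make, process and degrade histone mRNA were counted beside the histone genes. For all lists below, the shares over all genes were 22.2% that rose and 17.7% that fell in CP70, 32.5% and 29.4% in PEA2, and 19.6% and 21.9% in PEO4, and the lists are short, so 1 gene moves a share widely. Of 6 genes for histone transcription and the locus body, 1 rose and 2 fell in CP70, 2 rose and 4 fell in PEA2, and 1 rose and none fell in PEO4. NPAT, the organiser of the locus body, had 5.81 ± 0.29 (SD, n = 3) log2 CPM in A2780 and 5.60 ± 0.31 in CP70 (FDR 0.308). It fell in PEA2 (log2FC -0.38 ± 0.15, FDR 0.0358) and did not pass in PEO4 (-0.13 ± 0.15, FDR 0.536). CASP8AP2, another component of the locus body, rose in PEA2 by 1.50 ± 0.13 (FDR 4.48e-09), and COIL, the coilin of Cajal bodies, fell there by 2.00 ± 0.20 (FDR 5.45e-08).

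Of 12 genes for the processing of histone mRNA ends, 1 rose and 3 fell in CP70, 1 rose and 5 fell in PEA2, and 2 rose and 4 fell in PEO4. The shares that fell were 25.0%, 41.7% and 33.3%, against 17.7%, 29.4% and 21.9% of all genes, with medians of -0.11, -0.24 and -0.07. SLBP, which binds the stem-loop, did not pass in CP70 (log2FC -0.21 ± 0.11, FDR 0.137) or PEA2 (-0.09 ± 0.11, FDR 0.494) and rose in PEO4 (0.35 ± 0.11, FDR 0.0154). NCBP2, a subunit of the cap-binding complex, fell in CP70 (-0.68 ± 0.13) and PEO4 (-0.53 ± 0.13) and rose in PEA2 (1.41 ± 0.13). SYMPK, the scaffold of the cleavage complex, fell in CP70 (-0.72 ± 0.13) and PEA2 (-0.87 ± 0.13) and rose in PEO4 by 0.43 ± 0.13. Of 9 genes for decay and translation, 2, 5 and 1 rose and 1, 2 and 1 fell in CP70, PEA2 and PEO4. ERI1, the exonuclease that trims the stem-loop end, rose in CP70 (log2FC 1.91 ± 0.15, FDR 2.38e-09) and fell in PEA2 (-1.32 ± 0.15, FDR 2.98e-07) and PEO4 (-0.48 ± 0.15, FDR 0.0152).

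The 13 measured replacement and variant histones, which are made outside S phase too, also differed between pairs, with 4 that rose and 2 that fell in CP70, 5 and 5 in PEA2, and 2 and 3 in PEO4. Their medians were 0.17, 0.47 and -0.19. H1F0, the linker histone of resting cells, rose by 3.56 ± 0.15 in PEA2 (FDR 1.34e-13) and fell by 1.08 ± 0.15 in PEO4 (FDR 6.16e-06). H2AFX, the variant marked at DNA breaks, rose in CP70 by 0.92 ± 0.12 (FDR 2.66e-06) and fell in PEA2 by 1.65 ± 0.12 (FDR 4.13e-10). Of 19 histone chaperones, 3 rose and 4 fell in CP70, 5 rose and 9 fell in PEA2, and 6 rose and 3 fell in PEO4. In CP70 these were 15.8% and 21.1%, near the 22.2% and 17.7% of all genes. In PEA2 they were 26.3% and 47.4%, against 32.5% and 29.4%, and in PEO4 31.6% and 15.8%, against 19.6% and 21.9%. RBBP7, a histone-binding subunit of several chromatin complexes, rose in CP70 (1.16 ± 0.11, FDR 6.26e-08), and TONSL, which reads new H4, rose in PEO4 (1.43 ± 0.17, FDR 8.82e-07).

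Lists for the cell cycle and for other RNAs without a poly(A) tail were set beside the histone genes. Of 22 S phase genes, 2 rose and 5 fell in CP70 (median log2FC -0.19), 4 rose and 10 fell in PEA2 (median -0.29), and 2 rose and 11 fell in PEO4 (median -0.35). The shares that fell were 22.7%, 45.5% and 50%, against 17.7%, 29.4% and 21.9% of all genes. PCNA, the clamp of the replication fork, fell in all 3 pairs, with log2FC -0.52 ± 0.09, -0.38 ± 0.09 and -1.63 ± 0.09. The largest called changes of this list in PEA2 went both ways, with TYMS at -2.36 ± 0.12 and CDC45 at 1.82 ± 0.20. In CP70 they were MCM4 (-0.70 ± 0.11) and UHRF1 (-0.60 ± 0.16), and UHRF1 came after PCNA in PEO4 (-0.90 ± 0.16). Of 11 genes of G2 and mitosis, 3 rose and 1 fell in CP70, 4 and 5 in PEA2, and 1 and 4 in PEO4. The shares that fell were 9.09%, 45.5% and 36.4%, and the medians 0.14, -0.23 and -0.19. Of 7 other RNAs without a poly(A) tail, 0 rose and 2 fell in CP70, 2 rose and 0 fell in PEA2, and 1 rose and 2 fell in PEO4, all by limma, with medians of -0.28, 0.11 and -0.33. TERC, the telomerase RNA, fell by 1.19 ± 0.27 in CP70, rose by 1.74 ± 0.27 in PEA2 and fell by 2.43 ± 0.27 in PEO4. The part of cell cycle stage or of RNA preparation in the histone values was not tested.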

How the data were processed

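Total RNA from 6 cell lines (18 libraries) was depleted of rRNA and sequenced with a directional kit. Per the labels and methods, the authors aligned reads to hg19 with Bowtie2, counted them per gene with featureCounts and normalized them with limma, with versions and the strand setting not given in the sources used here. The deposited values are log2 CPM of 12853 genes, to which the authors added 0.5 reads. Whole reads were recovered from 100% of the values (tolerance 0.01 reads).

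The 66 genes and all lists were chosen with earlier results of these data known. Each line's mean was fitted over all 18 libraries with limma 3.58.1 (R 4.3.3) with a variance trend. The resistant line was compared with its partner, all pairs were compared in a model with the pair as a term, and log2FC values were compared between pairs. P-values were adjusted over all 12853 genes, and an FDR below 0.05 was called. The fit was tested on simulated data. Ratios of pooled reads carry exact 95% intervals, which cover counting error only, and a line at 0 reads was set to 3 reads over its libraries. The depth, 1344098 to 7067336 reads on listed genes, limits genes of few reads.

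The rule for genes named with values took those past a log2FC of 2 in a pair, those called alike in all 3 pairs, the 3 highest per coding length in each class, those called in opposite directions in PEA2 and PEO4, those with close copies, NPAT, CASP8AP2 and SLBP, and from each list the 2 with the largest called change in each pair. Of the genes taken from the lists only some are given in the text, so those given are not always the largest changes. Other genes named were chosen after their values were seen. Of the 66, 62 were matched to GENCODE release 44 on GRCh37, 33 by identifier and 29 by synonym and position. Sequences were read with Biopython 1.88 in Python 3.11.15 (pandas 2.3.3, numpy 2.4.6, scipy 1.17.1, matplotlib 3.10.9). The alternatives were other normalizations, filters, weights, thresholds and added reads, each pair alone, the replicate block and leaving out each library.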

Additional observations from a re-analysis of the deposited data

Results flagged for a closer look

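The log2FC differed between pairs, by a limma contrast at an FDR below 0.05, for 34, 36 and 33 of the 66 genes. The shares over all genes were 57.5%, 47.5% and 58.7% in the same contrasts. Values are given here for the 16 of these genes that passed a log2FC of 2 in a pair or were called in opposite directions in PEA2 and PEO4, each in the contrast with the largest test statistic. Each value here is the later-named pair's log2FC taken from that of the first, with its SE. Between the PEA and A2780 pairs, the difference was 10.51 ± 0.34 for HIST1H3G, 9.66 ± 0.27 for HIST1H2BI, 9.19 ± 0.26 for HIST1H3I, 8.91 ± 0.69 for HIST1H4D and 7.53 ± 0.54 for HIST1H3A. These genes had 4 reads or fewer in every CP70 library, and HIST1H2BI and HIST1H3I had 0 in each, so the sizes depend on the reads added. All of these genes but HIST1H4D (log2FC 0.87 ± 0.48, FDR 0.127 by limma) rose in PEA2. In the same contrast HIST1H3J differed by 6.49 ± 0.62 and HIST1H2BE by 4.89 ± 0.37. HIST1H3J had at most 2 reads and HIST1H2BE 0 in any PEA1 library, so these sizes depend on the reads added too. Between the PEO and A2780 pairs, HIST1H4I differed by 9.28 ± 0.93 and HIST1H3C by 2.45 ± 0.66. HIST1H4I had at most 1 read in any PEO library and HIST1H3C at most 4 in any A2780 library, so the size of either difference depends on the reads added.

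Between the PEO and PEA pairs, HIST3H2BB differed by -4.19 ± 0.35 and HIST3H2A by -3.79 ± 0.30. HIST1H2BM, with 8 reads or fewer in each PEA1 library, differed by -2.81 ± 0.59. HIST4H4 differed by -1.43 ± 0.30, and the copies HIST2H4A and HIST2H4B, which share reads, by -1.01 ± 0.24 each. HIST1H4F differed by 6.59 ± 0.54, from its loss in PEA2, where it had 0 reads in each library, so this size depends on the reads added. The causes were not tested. With 3 libraries per line, no line was large enough for a test of single outlying libraries.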

How the results depend on the processing

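Of 93 gene and pair values, alternatives other than leaving out a library gave 648 values. Of these, 611 stayed called or stayed not called, 10 lost their call and 27 gained one. Leaving out 1 library gave 558 values, of which 508 stayed called or stayed not called, 44 lost their call and 6 gained one. No value that was called, in the main fit or in the alternative, changed direction. Changes of sign among values called in neither were not counted. The cause of the changes was not tested.

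Requiring an absolute log2FC above 1 left 2 genes that rose in CP70, 6 that rose and 2 that fell in PEA2, 0 that rose (limma) and 5 that fell in PEO4, and 1 that fell over all pairs. Above 2, these were 0 (limma) that rose and 8 that fell in CP70, 2 and 1 in PEA2, 0 and 2 in PEO4, and 1 that fell over all pairs. With each pair fitted alone, 8 rose in CP70 and 16 in PEO4. Shares over all genes were counted in the main fit only, and there not for the threshold of 1. Leaving out genes at 3 reads or fewer throughout a line, chosen after seeing the data, left 12 of the 19 that fell in CP70.

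Leaving out 1 library gave 3 to 6 that rose and 17 to 24 that fell in CP70, 17 to 22 and 7 to 10 in PEA2, 7 to 11 and 9 to 18 in PEO4, and 0 to 3 and 3 to 5 over all pairs. It gave 29 to 39, 32 to 45 and 23 to 34 differences between PEA and A2780, PEO and A2780, and PEO and PEA. It gave 12 to 16 that fell in the first HIST1 block in CP70, 8 to 11 that rose in the second in PEA2, and 5 to 11 that fell in HIST2 in PEO4. Over all pairs, 3 rose without A2780 replicate 1, 2 without CP70 replicate 3 or PEO1 replicate 3, and 1 without A2780 replicate 3 or PEA1 replicate 1, and 5 fell without PEO1 replicate 2. In PEO4, 11, 9 and 10 fell without PEO1 replicate 2, PEO1 replicate 3 and PEO4 replicate 2, with 7, 5 and 6 in HIST2. Without A2780 replicate 3, 3 rose in CP70.

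Deviations of same-numbered libraries from their line means were at most weakly correlated. The correlation was -0.08 to 0.22 in the A2780 pair, -0.18 to 0.08 in the PEA pair and -0.07 to 0.13 in the PEO pair. Libraries of different number were not compared, so whether same-numbered libraries shared a preparation was not tested. With the replicate block, 5 rose and 20 fell in CP70, 21 and 9 in PEA2, 12 and 17 in PEO4, and 0 (limma) and 1 over all pairs. With the 3 pair differences as replicates, 0 (limma) fell. No H3 or H4 sum could be made without genes of identical protein, since none were left.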
